A study of Mus musculus with 6 samples.

Results

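Aqp4, Mlc1, Hepacam, Dag1, Dtna and Dmd encode a membrane assembly of astrocytes, and their transcripts were followed in bulk RNA sequencing of the mouse paraventricular thalamus. These 6 genes were taken by symbol from the deposited table, which lists 21959 genes, and all 6 had enough counts to be among the 14259 genes tested. The table holds 3 libraries from mice with chronic constriction injury (CCI, replicates 1, 2 and 3), where loose ligatures around a nerve produce lasting pain, and 3 from untreated controls (replicates 4, 5 and 6). Both groups are labelled wild-type, and neither age, sex, strain nor the time after injury is given in the sources used here. The design text gives 30 mice per group but not how many entered each library. The p-values therefore rest on differences among libraries, some of which may be technical.

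Astrocytes wrap brain capillaries with flattened processes called endfeet, and the membrane facing the vessel is packed with the water channel aquaporin-4, the product of Aqp4. Aquaporin-4 is held there by the dystrophin-associated complex, in which dystrophin (Dmd) and alpha-dystrobrevin (Dtna) lie under the membrane and dystroglycan (Dag1) spans it to grip laminin and agrin of the vessel's basement membrane. Mlc1 and its chaperone GlialCAM (Hepacam) form a second endfoot assembly that takes part in astrocyte volume control, and loss of either gene's function in people causes a leukodystrophy with brain swelling. Aqp4, Mlc1 and Hepacam are largely astrocytic in brain, whereas Dag1, Dtna and Dmd are also used by neurons and vascular cells.

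The deposited counts pool all transcripts of a gene, also those from separate starts. Dmd has a distal start whose longest annotated coding sequence nearby is 11034 bp (3678 codons), and another start 2099425 bp further on, near which the longest is 1851 bp (617 codons). The short form is the dystrophin known from perivascular astrocyte endfeet. A change in the Dmd count cannot be assigned to any single start, and starts other than these were not examined. For that reason the 250 bases before each of these starts are shown. They were copied from RefSeq (GRCm38.p6, plus strand, chrX:82948620-82948869 and chrX:85048045-85048294), 5′ to 3′, and capitals mark CG dinucleotides. Gene positions given further on are in the newer build GRCm39 and cannot be set against these.
Dmd distal start: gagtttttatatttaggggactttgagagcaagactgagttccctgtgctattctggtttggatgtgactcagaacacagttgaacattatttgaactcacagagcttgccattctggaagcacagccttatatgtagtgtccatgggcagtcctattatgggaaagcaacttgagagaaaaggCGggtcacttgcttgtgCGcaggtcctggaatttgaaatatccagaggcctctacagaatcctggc
Dmd short-form start: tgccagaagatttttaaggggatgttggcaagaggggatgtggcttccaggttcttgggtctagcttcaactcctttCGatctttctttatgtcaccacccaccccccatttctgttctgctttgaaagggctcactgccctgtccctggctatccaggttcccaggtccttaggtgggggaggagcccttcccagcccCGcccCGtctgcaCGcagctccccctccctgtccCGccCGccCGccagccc
The distal window holds 2 CG dinucleotides at 45.2% G and C, and the short-form window 7 at 60% G and C. Of the 32851 windows of this length in the RefSeq table, 81.2% hold at least 2 and 46.3% at least 7, with a median of 6.

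Aqp4, Mlc1, Dtna and Dmd rose in CCI, and Hepacam and Dag1 did not pass the test. By edgeR's quasi-likelihood test with Benjamini-Hochberg adjustment, 4 of the 6 genes were higher at an adjusted p under 0.05 and none was lower. In the same fit 52.3% of all tested genes passed, with 27.0% of tested genes higher and 25.3% lower, so a call by itself sets no gene apart in these data. The median log2 fold change was 0.80 over the 6 genes and 0.06 over all tested genes. For 5 of the 6 genes every CCI library lay above every control library, which held for 33.6% of tested genes. Bulk tissue cannot tell more cells of a type from more RNA per cell.

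**Figure D1:**
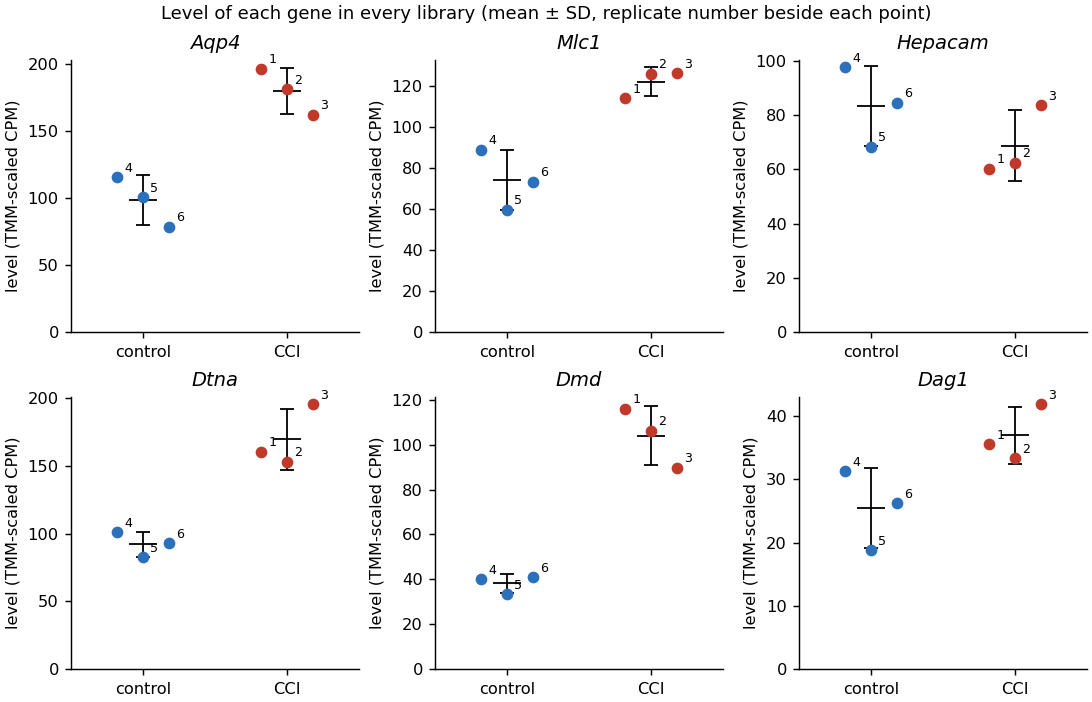
Level of each gene in TMM-scaled CPM (vertical axes from 0) in the 3 control (blue) and 3 CCI (red) libraries, numbered by replicate, with mean ± SD in black. The CCI points lie above the control points for Aqp4, Mlc1, Dtna, Dmd and, by a small margin, Dag1, while those of Hepacam overlap.

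Aqp4 (ENSMUSG00000024411; chromosome 18, 15522553 to 15544039, minus strand, GRCm39), the water channel itself, had 1959, 1983 and 2105 counts in CCI replicates 1 to 3 and 1297, 850 and 1054 in control replicates 4 to 6. As CPM, counts scaled to library size with TMM normalisation factors, these were 196, 181 and 162 in CCI and 116, 100.5 and 78.8 in control. The groups were separated by 46.4 CPM, and the lowest control was replicate 6. The mean rose 1.83-fold, from 98.4 ± 18.5 to 180 ± 17.1 CPM (SD, n = 3). On the log2 scale the change was 0.87 ± 0.19 (SE; edgeR adjusted p = 0.00497). Among all tested genes this change lay at percentile 77.0.

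Dmd (ENSMUSG00000045103; chromosome X, 81992476 to 84249747 in GRCm39, plus strand), the cytoskeletal anchor, had the highest fold change of the 6 with TMM scaling. Its levels were 116, 106 and 89.8 CPM in CCI and 40.1, 33.5 and 40.8 in control. The lowest CCI library lay 49.0 CPM above the highest control. The log2 fold change was 1.45 ± 0.17 (edgeR adjusted p = 0.000336), or 2.72-fold, at percentile 89.6 of tested genes. With offsets for coding length and GC content it was 0.19 and did not pass (adjusted p = 0.444), below Aqp4, Mlc1 and Dtna in that fit.

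Dtna (ENSMUSG00000024302; chromosome 18, 23548192 to 23792772, plus strand), whose product joins dystrophin to the syntrophins, stood at 161, 153 and 196 CPM in CCI and 101, 82.4 and 93.1 in control. The groups were 52.1 CPM apart, and CCI replicate 3 was the highest library. The change was 0.88 ± 0.17 on the log2 scale (edgeR adjusted p = 0.00296), nearly that of Aqp4.

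Dag1 (ENSMUSG00000039952; chromosome 9, 108081833 to 108141157, minus strand), the dystroglycan gene and the link to the basement membrane, had the lowest count of the 6, 2125 over all libraries. It stood at 35.6, 33.3 and 41.9 CPM in CCI and at 31.3, 18.8 and 26.3 in control. The groups were ordered but nearly touched. Its log2 fold change of 0.53 ± 0.21 did not pass (edgeR adjusted p = 0.0632), and it passed without control replicate 4 (0.68, adjusted p = 0.0419).

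Mlc1 (ENSMUSG00000035805; chromosome 15, 88840087 to 88863210, minus strand), a membrane protein of endfoot junctions, stood at 114, 126 and 127 CPM in CCI and at 89.1, 59.8 and 73.5 in control. The groups did not overlap, and the 3 CCI libraries lay closer together than the controls. The change was 0.72 ± 0.18 (edgeR adjusted p = 0.00974), or 1.65-fold.

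Hepacam (ENSMUSG00000046240; chromosome 9, 37278647 to 37297871, plus strand), which encodes the adhesion protein that brings Mlc1 to the junction, did not follow its partner. It stood at 60.2, 62.4 and 83.7 CPM in CCI and at 97.6, 68.3 and 84.5 in control. CCI replicate 3 lay inside the control range and the groups overlapped. The log2 fold change was -0.28 ± 0.20 (edgeR adjusted p = 0.258). It was -0.43 and passed as lower without control replicate 5 (adjusted p = 0.0309). In that library 20.7% of counts lay in the 50 top genes, compared with 14.2% and 14.5% for the remaining controls. It was the lowest control for 5 of the 6 genes, all but Aqp4. Without it the log2 fold change was 0.56 for Mlc1, 0.33 for Dag1, 0.77 for Dtna and 1.33 for Dmd. Each was smaller than with all libraries, and Mlc1, Dtna and Dmd still passed.

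Levels of different genes were set side by side only per length, as TMM-scaled CPM per kb of the deposited gene length. That length is 23801 bp for Dmd and 16930 bp for Dtna, and how it was taken is not given, so levels of genes read mostly as short forms may be understated. In control, Mlc1 (26.5 ± 5.22 CPM per kb) and Hepacam (24.9 ± 4.39) were the most abundant and their ranges overlapped. Aqp4 followed at 15.8 ± 2.97, then Dtna at 5.44 ± 0.55 and Dag1 at 4.0 ± 0.99, whose ranges also overlapped, and Dmd at 1.60 ± 0.17. In CCI the order was Mlc1 (43.7 ± 2.52 CPM per kb), Aqp4 (28.9 ± 2.74), Hepacam (20.6 ± 3.88), Dtna (10.03 ± 1.34), Dag1 (5.81 ± 0.70) and Dmd (4.37 ± 0.56). No neighbours in the CCI order overlapped, although the lowest Aqp4 library (26.02) and the highest Hepacam library (25.02) were close. Aqp4 and Hepacam thus changed places between the groups.

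The ratio of 2 genes within a library does not depend on how libraries are scaled, and it was computed for all 15 pairs. Each of the 5 ratios to Hepacam was separated between the groups, but all share Hepacam as denominator and so are not independent. Mlc1 stood at 1.06 times Hepacam per kb in control (geometric mean; log2 ratios 0.12, 0.06 and 0.05) and at 2.15 times in CCI (1.18, 1.27 and 0.85). The log2 ratio of Aqp4 to Hepacam went from -0.66 ± 0.33 in control to 0.50 ± 0.39 in CCI (SD, n = 3), a difference of 1.16. Per unit of Hepacam, Dtna was 2.23-fold, Dag1 1.79-fold and Dmd 3.31-fold higher in CCI than in control.

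The ratio of Aqp4 to Dtna differed by 0.01 on the log2 scale, with overlapping groups. The groups also overlapped for Aqp4 to Mlc1 (0.14), Mlc1 to Dtna (-0.14), Mlc1 to Dag1 (0.18) and Aqp4 to Dag1 (0.32). Every ratio to Dmd was lower in CCI, from -0.56 for Aqp4 and -0.57 for Dtna to -0.71 for Mlc1, -0.88 for Dag1 and -1.73 for Hepacam. Dag1 to Dtna differed by -0.32 and was separated too. The ratios are free of library scaling but are not corrected for coding length or GC content. With offsets for both, the log2 fold change of Dmd (0.19) was below those of Aqp4 (1.379), Mlc1 (0.97) and Dtna (0.79). It was above those of Dag1 (0.10) and Hepacam (-0.25). In all, the groups did not overlap in 10 of the 15 ratios. Ratios that share a gene are not independent, and the share of other gene pairs without overlap was not computed. The count of 10 by itself therefore does not set these genes apart. For each of those 10 the exact 2-sided permutation p was 0.1, the smallest that 3 against 3 libraries allow, and 0.15 after adjustment over the 15 pairs, so none could pass a threshold of 0.05.

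**Figure D2:**
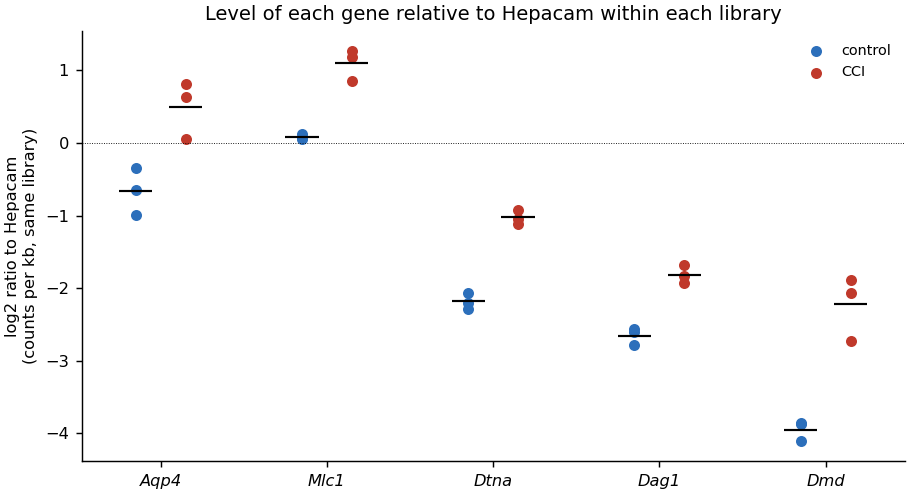
Log2 ratio of each gene to Hepacam, from counts per kb in the same library, in control (blue) and CCI (red) libraries, with group means as black lines. All 5 ratios are higher in every CCI library than in every control library, and the dotted line marks equal levels.

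The size of the changes depended on scaling and on offsets for coding length and GC content. The TMM factors of the CCI libraries (1.21 to 1.25) were above those of the controls (0.69 to 0.90). With library totals alone the median of all genes moved by 0.59 on the log2 scale, 45.4% of tested genes were called higher, and 5 of the 6 genes rose, Dag1 among them (1.10, edgeR adjusted p = 0.0119). Hepacam was then at 0.29 (adjusted p = 0.352), so its sign flips with scaling, whereas Aqp4, Mlc1 and Dtna passed as higher in each of 16 alternative settings.

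Long genes as a class were higher in CCI, and Dmd is among the longest. Only 76 tested genes (0.534% of those with a known coding length) have a coding length of at least that of Dmd. Of 403 tested genes with a coding length of 6000 bp or more, 309 rose and 6 fell, with a median log2 fold change of 1.27. In the class of 900 to 1300 bp, which holds Aqp4 (969 bp), Mlc1 (1164 bp) and Hepacam (1254 bp), 422 of 2728 rose and 912 fell, with a median of -0.23. The offsets took coding length and GC content together, so their parts cannot be told apart, and the coding GC content of Dmd is 43.1%. With them Dmd was at 0.19 and Dag1 at 0.10, while Aqp4 was at 1.379, Mlc1 at 0.97 and Dtna at 0.79, each of which passed. In that fit 23.4% of genes were called higher. With mean expression in the offsets as well, 22.3% were, and Aqp4 was at 1.81, Mlc1 at 1.41, Dtna at 1.29, Dmd at 0.43 (adjusted p = 0.0979) and Hepacam at 0.20.

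**Figure D3:**
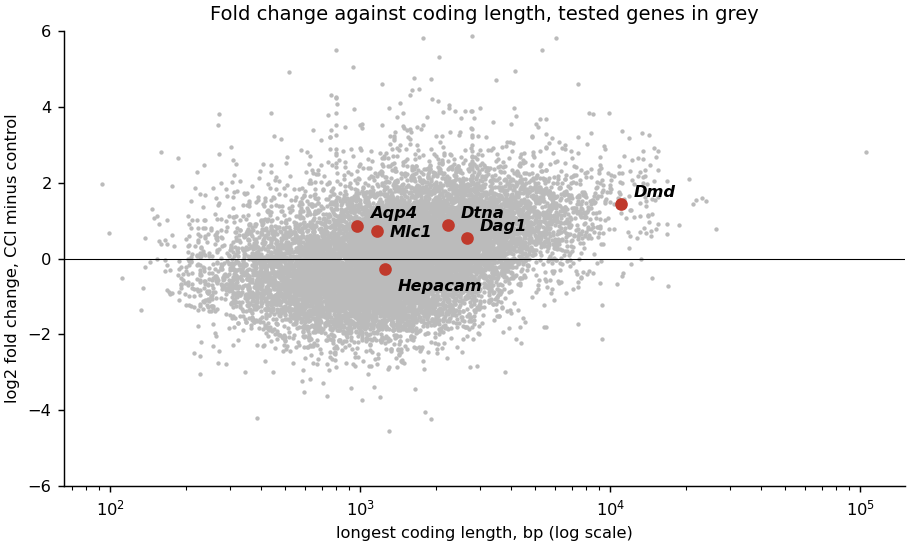
Log2 fold change (CCI minus control) against the longest coding length in bp (log axis) for 14220 tested genes (grey, 2 beyond ±6 not drawn) and the 6 endfoot genes (red). Dmd lies among long genes, most of which are above 0, whereas Aqp4 and Mlc1 lie among shorter genes.

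**Figure D4:**
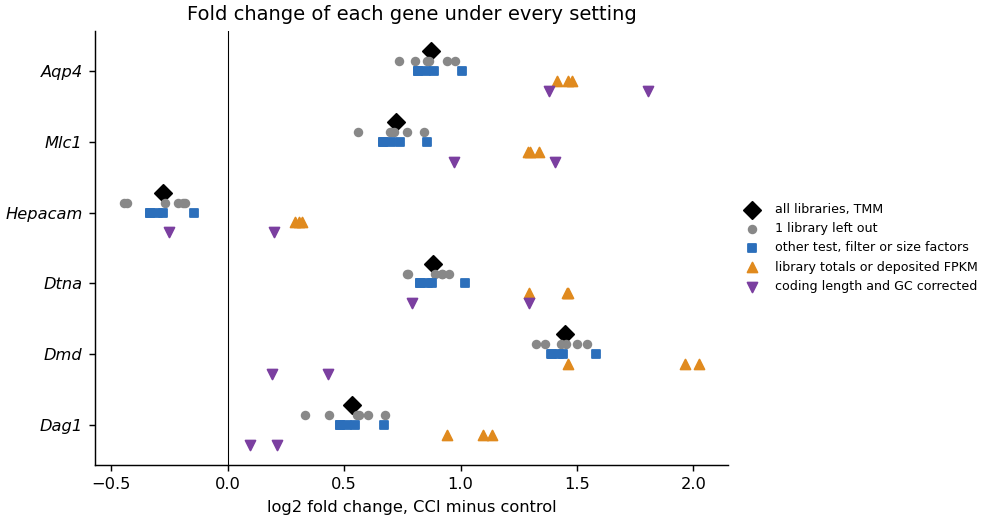
Log2 fold change (CCI minus control) of each gene with all libraries and TMM scaling (black) and under 16 alternatives, grouped by kind. All points of Aqp4, Mlc1 and Dtna lie above 0, those of Hepacam lie on both sides, and the points of Dmd with length and GC offsets lie at 0.19 and 0.43.

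The list of dystrophin-associated complex genes, which includes Dmd, Dtna and Dag1, went both ways. Of its 16 genes 14 were tested, 7 rose, 3 fell and 4 did not pass. These counts and the median log2 fold change of 0.71 thus include Dmd, Dtna and Dag1. Over all tested genes 27.0% were higher and 25.3% lower. Besides Dmd and Dtna, the rises were Utrn (1.44 ± 0.16), the dystrophin paralogue, Sgcd (2.41 ± 0.42), a sarcoglycan, Sntg1 (1.10 ± 0.19), a syntrophin, and, named after their values were seen, the syntrophin gene Sntb2 (1.33 ± 0.25) and the sarcospan gene Sspn (1.02 ± 0.19). Utrn was at 0.36 with the coding length and GC offsets and did not pass (edgeR adjusted p = 0.0669), nor did Dmd (0.19, adjusted p = 0.444). Dtna, Sgcd, Sntg1, Sntb2 and Sspn passed with those offsets.

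The 3 that fell were Sgcb (-1.51 ± 0.16) and Sgce (-0.97 ± 0.25), both sarcoglycans, and the syntrophin gene Sntb1 (-0.98 ± 0.20). Sgcb went from 164 ± 11.8 to 57.5 ± 6.76 CPM (SD, n = 3), and of the 3 it alone passed with library totals. Sgce did not pass with the coding length and GC offsets. The beta-dystrobrevin gene Dtnb was at 0.28 ± 0.29 (edgeR adjusted p = 0.436), with an SE larger than the difference.

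**Figure D5:**
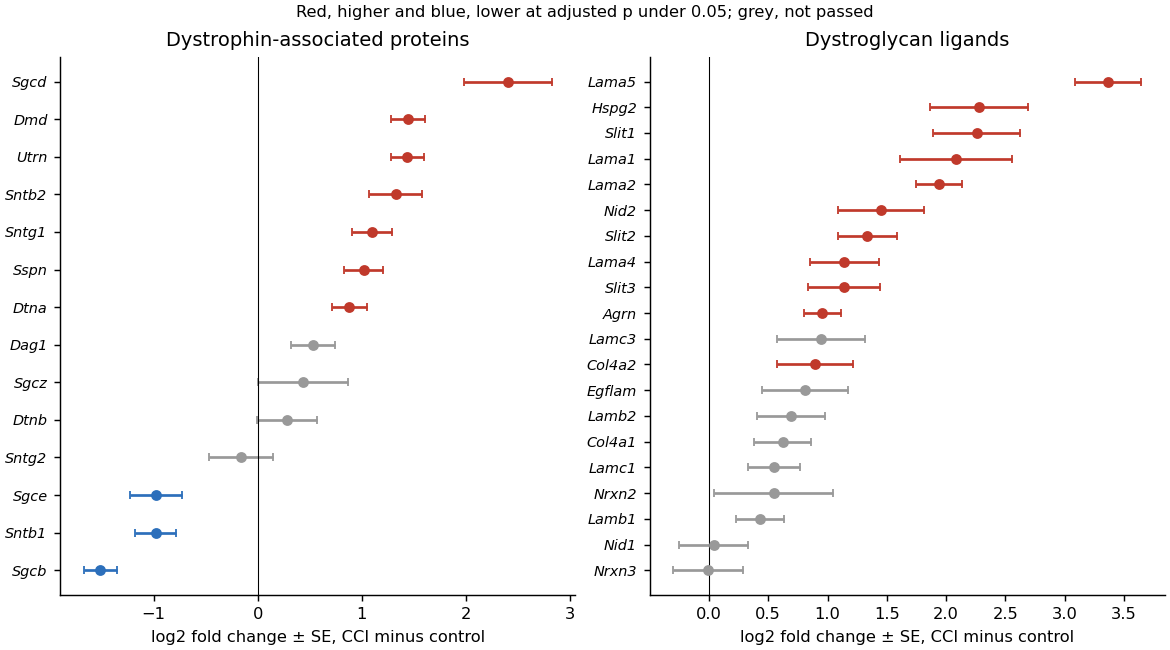
Log2 fold change ± SE (CCI minus control) of the tested dystrophin-associated complex genes (left) and of dystroglycan ligand and basement membrane genes (right). In the complex 7 genes are higher (red) and 3 lower (blue), and in the right list 11 are higher, with those that did not pass in grey.

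Genes of dystroglycan ligands and of the basement membrane rose or did not pass. This ligand list also holds laminin beta and gamma chain, nidogen and collagen IV genes, with Nid2 and Col4a2 among its rises. Of 20 tested genes 11 rose, against 27.0% of all tested genes, and 9 did not pass, with a median of 0.95. The laminin chain genes Lama5 (3.37 ± 0.28) and Lama2 (1.94 ± 0.20), the axon guidance gene Slit1 (2.26 ± 0.36) and the agrin gene Agrn (0.96 ± 0.16) were higher. Lama2, whose chain is found in the endfoot basement membrane, went from 6.37 ± 0.88 to 24.3 ± 1.67 CPM (SD, n = 3). With the coding length and GC offsets 4 of the 20 genes rose, against 23.4% of all genes in that fit. Agrn was then at -0.30 (edgeR adjusted p = 0.140) and Lama2 at 0.96, which passed.

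Enzymes that build the laminin-binding sugars of dystroglycan went both ways with TMM scaling. Among 17 tested enzyme genes there were 4 rises, 4 falls and 9 that did not pass, and the median was 0.19. Of all tested genes 27.0% rose and 25.3% fell, so these counts do not set the enzyme genes apart. Rises were seen in the dolichol-phosphate-mannose synthase genes Dpm1 (1.22 ± 0.22) and Dpm2 (0.57 ± 0.15), in Pomt2 (1.06 ± 0.38), which adds the first mannose, and in Large2. Large2 had 36 counts in CCI and 2 in control, which after scaling gives a ratio of 17.5 with a 95% interval of 4.51 to 150 that covers counting error only. The falls were in Rxylt1 (-0.99 ± 0.19), Dpm3 (-1.04 ± 0.28), Pomk (-0.47 ± 0.16) and Dolk (-0.86 ± 0.31). Only 1 enzyme gene was lower without CCI replicate 1 or without CCI replicate 2, and 2 were without CCI replicate 3, control replicate 4 or control replicate 6. When control replicate 6 was left out, 2 were higher. With library totals 7 were higher and 0 lower, and Pomk was at 0.11. In that fit 45.4% of tested genes were higher, so the 7 rises do not set the enzyme genes apart.

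Other endfoot membrane genes went both ways. This list had 10 tested genes, of which 4 fell, 3 rose and 3 did not pass (median -0.23). Over all tested genes 25.3% fell and 27.0% rose. The potassium channel gene Kcnj10, whose product sits beside aquaporin-4 in endfeet, was at 99.9 to 104 CPM in CCI and at 161 to 217 in control, with no overlap. It fell by 0.87 on the log2 scale (SE 0.17, edgeR adjusted p = 0.00298), the opposite direction to Aqp4, but it did not pass with library totals (-0.26), on log2(FPKM + 1) or with mean expression among the offsets (-0.10). The connexin genes Gjb6 (-2.36 ± 0.24) and Gja1 (-1.35 ± 0.36) and the sodium pump subunit gene Atp1b2 (-1.47 ± 0.28) also fell. Gja1 did not pass with library totals (-0.68), and neither Gja1 (-0.17) nor Atp1b2 (-0.42) did with mean expression among the offsets. On log2(FPKM + 1) neither Gja1 (-0.60) nor Atp1b2 (-0.80) passed.

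The 3 endfoot genes that rose were the bicarbonate transporter gene Slc4a4 (0.52 ± 0.15), the linker gene Ezr (0.91 ± 0.34, edgeR adjusted p = 0.0482) and the osmosensitive channel gene Trpv4 (1.72 ± 0.51). None of the list rose without CCI replicate 2, and 1 did when control replicate 6, CCI replicate 1 or CCI replicate 3 was left out. Gja1 did not pass without CCI replicate 1 or 3. With the coding length and GC offsets none of the list rose and 5 fell. In that fit 3333 of 14220 genes were higher and 3084 lower.

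Partners of Mlc1 and GlialCAM and the volume-regulated anion channel genes were likewise mixed, with 2 of 9 tested higher, 2 lower and a median of 0.35. Of all tested genes 27.0% were higher and 25.3% lower. Clcn2, the chloride channel that GlialCAM binds, rose by 1.28 ± 0.27, from 5.20 ± 1.17 to 12.6 ± 2.45 CPM (SD, n = 3), and Trpv4 rose as above. Lrrc8a, the obligatory subunit of the volume-regulated anion channel, fell by 1.82 on the log2 scale (SE 0.19), from 840 ± 31.5 to 238 ± 31.7 CPM, and passed as lower in each of the 16 alternative settings. The sodium pump subunit gene Atp1b1 fell by 0.97 (SE 0.26), but lost its call when control replicate 6, CCI replicate 1 or CCI replicate 3 was left out. Trpv4 did not pass without CCI replicate 2 or 3, and neither Clcn2 nor Trpv4 did with the coding length and GC offsets.

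Aqp4 was the only aquaporin gene of the 4 tested to pass, where 52.3% of all tested genes passed. Aqp11, an intracellular channel gene, was at 0.25 ± 0.25, Aqp9 at -0.06 ± 0.48 and the choroid plexus gene Aqp1 at -0.26 ± 0.76, and 6 others had too few counts to be tested. Aqp1 ranged widely among controls (3.68 ± 4.16 CPM, SD, n = 3).

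Markers of the cells that could carry these transcripts were summed in each library. Their calls stand beside 27.0% of all tested genes higher and 25.3% lower. Of 12 astrocyte markers 1 rose (Gfap) and 5 fell, and their sum was 3739 to 4498 CPM in CCI and 8699 to 11444 in control. Aldoc alone went from 4718 to 6237 CPM in control to 953 to 1335 in CCI. Without it, and with TMM scaling, the CCI sums (2678 to 3545 CPM) still lay below the control sums (3981 to 5207). The TMM factors, larger in every CCI library than in any control, lower the CCI sums relative to the control sums. All marker sums given here use that scaling. Whether the groups stay apart with library totals was not tested, so this gap does not show that astrocyte marker RNA fell. Slc1a2 was at -0.08 (adjusted p = 0.813). Gja1 and Gjb6 are in this list and in that of endfoot genes. Aldh1l1 (0.25 ± 0.20, edgeR adjusted p = 0.311) and Slc1a3 (-0.38 ± 0.20, adjusted p = 0.143) did not pass. Of 10 endothelial markers 3 rose and 2 fell, with sums of 283 to 316 CPM in CCI and 535 to 758 in control. Without Itm2a they were 232 to 263 and 253 to 280 and overlapped, and Cldn5 was at -0.37 ± 0.18 (adjusted p = 0.118). Of 9 tested mural markers 3 rose and 3 fell, with sums of 183 to 228 and 273 to 353 CPM. The endothelial and mural counts are near the shares of all tested genes and do not set these markers apart. Without Rgs5 the mural sums were 80.0 to 102 and 74.6 to 95.3 CPM and overlapped, and Pdgfrb rose by 1.91 ± 0.29.

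Ependymal cells, which also make aquaporin-4, had sums that overlapped between the groups, at 162 to 259 CPM in CCI and 116 to 357 in control. Of 8 ependymal markers 1 was higher, against 27.0% of all tested genes. Choroid plexus markers summed to 2107 to 2976 CPM in CCI and 2782, 4166 and 300 in control replicates 4, 5 and 6. Control replicate 6 was thus lowest in both, and it was also the lowest library for Aqp4. Without control replicate 6 Aqp4 was at 0.73 (edgeR adjusted p = 0.0224). Control replicate 5 had the highest ependymal and choroid plexus sums of all libraries. Its Aqp4 level (100.5 CPM) was below that of control replicate 4 (116 CPM) and of every CCI library. Oligodendrocyte markers summed to 18490 to 24364 CPM in CCI and 7154 to 13908 in control, and without Mbp the sums overlapped (12024 to 15708 and 5272 to 12756). Oligodendrocyte precursor markers rose in 6 of 8, against 27.0% of all tested genes, with sums of 508 to 641 and 145 to 174 CPM. Thalamic neuron markers summed to 1226 to 1989 CPM in CCI and 4500 to 7308 in control. Cortical and hippocampal excitatory neuron markers rose in 7 of 7 tested, against 27.0% of all tested genes. Their median log2 fold change was 2.26, with sums of 166 to 206 CPM in CCI and 59.8 to 77.3 in control. No defining marker of astrocytes, endothelium, ependyma or choroid plexus was at 0 in all libraries. The part of these cell types in the changes of the 6 genes was not tested.

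Over the 6 libraries, the genes whose log2(CPM + 1) was closest to that of Aqp4 were Lyl1 (Pearson r 0.996), Akna (0.994), Snrnp200 (0.994), Tmtc2 (0.994) and Fbxl13 (0.993). These values are a description over 6 libraries that include the difference between the groups, and 417 tested genes reached 0.95. Among the endfoot genes r with Aqp4 was 0.92 for Dmd, 0.87 for Mlc1, 0.87 for Dtna, 0.71 for Dag1 and -0.55 for Hepacam.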

How the data were processed

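Poly-A selected RNA was reverse transcribed with random primers, per the labels' protocols. The tools in the submitters' processing notes are StringTie 2.2.1, HTSeq 0.9.1, HISAT2 2.1.0, fastp 0.22.0 and DESeq 1.38.3, with build GRCm39. No strand setting is given in the sources used here. Per the file headers, the authors deposited a read count and an FPKM per gene and library and a Length. Dividing counts by Length and column total returned the deposited FPKM values.

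Library depth was 7989139, 9056914 and 10529886 deposited counts for CCI replicates 1 to 3, and 12454029, 12337448 and 15438268 for controls 4 to 6. The main test was that of edgeR 4.0.16 under R 4.3.3 (TMM, filterByExpr, quasi-likelihood F-test, Benjamini-Hochberg over all tested genes, threshold 0.05). Standard errors were obtained from the fold change and the F statistic. Alternatives used limma 3.58.1, DESeq2 1.42.0, other scalings and filters, offsets of coding length and GC content (natural splines, 4 degrees of freedom each), and each library left out. Coding length came from GENCODE M21 (GRCm38) by Ensembl identifier, for 14220 tested genes. Ratios were tested by exact permutation in scipy 1.17.1. The code was tested on simulated data in which few genes changed and none by length, so that test does not vouch for the calls here.

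The 6 genes and the lists were chosen with earlier results of these data known. Some genes of the lists are not reported here, and the counts leave them out. Named were the 6 genes, of each list up to 4 passing genes in each direction with the smallest p, fixed partners and markers, and the 5 genes most correlated with Aqp4. Placeholder symbols were left out of the last.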

Additional observations from a re-analysis of the deposited data

How the results depend on the processing

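No paired analysis was possible because the 2 groups share no replicate numbers. Aqp4, Mlc1 and Dtna kept their direction and passed in all 16 alternatives, and Dmd in 14. Dmd did not pass with the length and GC offsets (0.19) or with mean expression added (0.43). Dag1 passed with library totals (1.10), on log2(FPKM + 1) (0.94), on log2(FPKM + 0.1) (1.14), with the stricter filter of 10 CPM in 3 libraries (0.67) and without control replicate 4 (0.68). Hepacam was positive with library totals (0.29), on log2(FPKM + 1) (0.30), on log2(FPKM + 0.1) (0.32) and with the length, GC and mean expression offsets (0.20). Leaving out 1 library gave 0.73 to 0.98 for Aqp4, 0.56 to 0.84 for Mlc1, -0.45 to -0.18 for Hepacam, 0.33 to 0.68 for Dag1, 0.77 to 0.95 for Dtna and 1.33 to 1.54 for Dmd, and 5474 (without CCI replicate 1) to 8904 calls (without control replicate 5) over all genes, against 7461. Over these fits 0 to 1 of the 6 genes were lower. Of all calls, 51.6% were higher with TMM, 82.4% with library totals and 83.2% on log2(FPKM + 1).

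Counts of the lists moved with scaling, with the length and GC offsets and with the library left out. Of tested genes 45.4% were higher with library totals, 46.5% on log2(FPKM + 0.1) and 47.6% on log2(FPKM + 1), and 1386, 1345 and 1374 of 14259 were lower. The higher share was 23.4% with the length and GC offsets, 22.3% with mean expression added and 20.1% to 31.1% with 1 library left out. Lower were 3084 and 2352 of 14220 with the offsets and 2797 of 10355 with the stricter filter. With library totals, complex genes were 1 lower, endfoot genes 2 lower, Mlc1 partners 5 higher and 1 lower, ligand list genes 17 higher, and enzymes 7 higher and 0 lower. On log2(FPKM + 0.1), they were 1 lower, 1 lower, 5 higher and 1 lower, 17 higher, and 7 higher and 0 lower. On log2(FPKM + 1), they were 1 lower, 1 lower, 5 higher and 1 lower, 17 higher, and 8 higher and 0 lower, and 2 aquaporins were higher. With the length and GC offsets, 0 endfoot genes were higher, partners were 0 higher and 1 lower, and 4 ligand list genes were higher. With mean expression added, 1 endfoot gene was lower, partners were 1 higher and 1 lower, ligand list genes 4 higher and 2 lower, and 2 enzymes lower. With the stricter filter 2 enzymes were lower, where Pomk (-0.33) and Dolk (-0.73) did not pass. Leaving out 1 library gave 0 to 3 endfoot genes higher, 1 to 3 partners higher and 1 to 2 lower, and 2 to 5 enzymes higher and 1 to 5 lower.

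Named genes that changed sign were, with library totals, log2(FPKM + 1) and log2(FPKM + 0.1), Slc1a3 (0.20, 0.19 and 0.20), Cldn5 (0.21, 0.22 and 0.23) and Pomk (0.11, 0.13 and 0.14). With the length and GC offsets Agrn was at -0.30, Aldh1l1 at -0.24 and Snrnp200 at -0.62. With mean expression added Aldh1l1 was at -0.25, Snrnp200 at -0.51, Slc1a3 at 0.49, Atp1b1 at 0.37 and Pomk at 0.0067. Leaving out 1 library gave -0.053 to 0.52 for Dtnb, negative without control replicate 5. The causes were not tested. Marker sums without the 1 marker that differed most were added after seeing the data. Dag1 had the fewest counts of the 6 genes, and Large2, with 36 and 2, is limited by depth.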
